A study of Homo sapiens with 36 samples.

Results

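The interval chr12:65390000-66400000 (hg19, 1.01 Mb), labelled HMGA2 and its upstream enhancers, was followed across chromatin libraries of SUM-229PE, an established line of triple-negative breast cancer that was started from a pleural effusion. Its members were chosen by position: every H3K27ac region in the 6 deposited count tables, and every JUNB site in the deposited union of peaks, that overlaps the interval. This gave 235 of 288084 H3K27ac regions over the 6 tables, which were called separately and overlap each other, and 93 of 146555 JUNB sites. By table the H3K27ac members numbered 41 for POS against NEG, 41 for acute POS, 45 for acute NEG, 35 for chronic POS, 29 for chronic NEG and 44 for POSR against POS, and all of them had enough counts to be tested. Of the JUNB sites 92 were tested; the site at chr12:65487389-65487590 was too weak. Overlapping members of different tables were merged into 75 loci, named below by the Mb position at which each starts, of which 12 were listed in all 6 tables and 22 in a single one.

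HMGA2 is a small nuclear protein that binds the minor groove of AT-rich DNA through AT-hooks and bends chromatin. It is abundant in the embryo and in many carcinomas, is held down in adult tissue by let-7 microRNAs, and is known in breast cells as a target of TGF-beta that induces SNAI and TWIST factors during epithelial-mesenchymal transition. H3K27ac marks active promoters and enhancers. JUNB is a subunit of AP-1, a dimeric transcription factor whose members are induced and stabilised through RAS, RAF, MEK and ERK, and trametinib inhibits the MEK kinases.

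In RefSeq's GRCh38.p14 annotation the protein-coding neighbours of HMGA2 are, in order, WIF1, LEMD3 and MSRB3 on one side and LLPH, TMBIM4 and IRAK3 on the other. The deposited files name no genes and hg19 gene positions were not used here, so no region below is assigned to HMGA2, called a promoter or an enhancer, or placed upstream or downstream of it. HMGA2 RNA and protein were not measured in these libraries, and no sequence is printed. The label was therefore not checked against the gene, and the results are given by position. For the same reason the sort labels were not checked against regions of EPCAM and ITGA6, which encode the 2 sorted antigens. In bulk libraries less signal per cell and fewer cells with the mark cannot be told apart.

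Sorted subpopulations of the line were EpCAM+ CD49f+ cells (POS) and EpCAM- CD49f- cells (NEG). In the acute arm they were given DMSO or 30 nM trametinib for 24 hours (3 libraries per group in POS and 2 in NEG). In the chronic arm the day 14 cells had 10 nM trametinib, and day 0 is labelled the DMSO control (2 libraries per group). POSR1 and POSR2 (2 libraries each) are set against the POS DMSO libraries in 1 table; the labels call both POSR and give no treatment or origin for them. JUNB was profiled in POS and NEG DMSO cells only (2 libraries each). All groups come from the 1 cell line, the chronic arm has no untreated day 14 group, so that drug and time in culture cannot be told apart there, and the labels do not tell whether replicate libraries are separate cultures, so the tests measure only the spread between these libraries, which may be technical. The POS DMSO libraries serve 3 comparisons (acute POS, POS against NEG, POSR against POS) and the NEG DMSO libraries serve both acute NEG and POS against NEG.

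The H3K27ac libraries held 1861227 to 9212006 counts in their tables (median count per region 43 to 91) and the JUNB libraries 4884516 to 8947351 (median per site 17 to 27). Levels are CPM (counts in a region relative to the library's total, scaled to a common total) adjusted by edgeR's TMM factors within each table, and tables were scaled separately. Log2 fold changes come from edgeR's quasi-likelihood fit to the whole table with their standard error (SE), and a region is said to have risen or fallen where its Benjamini-Hochberg adjusted p over the whole table was below 0.05. The interval was picked for study with results of these comparisons in view, so its counts and fold changes describe it and are no independent support for any direction. A single library, POS DMSO replicate 2, stands apart within its group. Among the 23 acute POS members with a mean of at least 20 CPM in DMSO it was the lowest of the 3 DMSO libraries at 21. Among the 18 members under 20 CPM it was the highest at 10. Without it 29 of 41 acute POS members passed (2 higher, 27 lower), against 33 with it.

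The interval's share of each library's H3K27ac counts fell with trametinib in both subpopulations. In POS it was 0.202%, 0.179% and 0.197% in the DMSO libraries and 0.0599%, 0.0631% and 0.0581% after 24 hours of trametinib. In NEG it was 0.21% and 0.21% with DMSO and 0.0771% and 0.072% with trametinib. The treated libraries lay far below the controls in both, with no overlap. In the chronic arm the POS share was 0.154% and 0.146% at day 0 and 0.0389% and 0.0412% at day 14. The NEG share was 0.221% and 0.21% at day 0 and 0.134% and 0.131% at day 14. This drop was smaller than in POS, but it was taken over a different set of regions and members. In the POSR table the share was 0.185%, 0.168% and 0.181% in POS, 0.126% and 0.129% in POSR1 and 0.0942% and 0.0926% in POSR2. These shares are sums over members chosen with results known and carry no test; an exact Clopper-Pearson 95% interval, which covers counting error only, reached no lower than 0.0372% in the POS day 14 libraries.

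**Figure D1:**
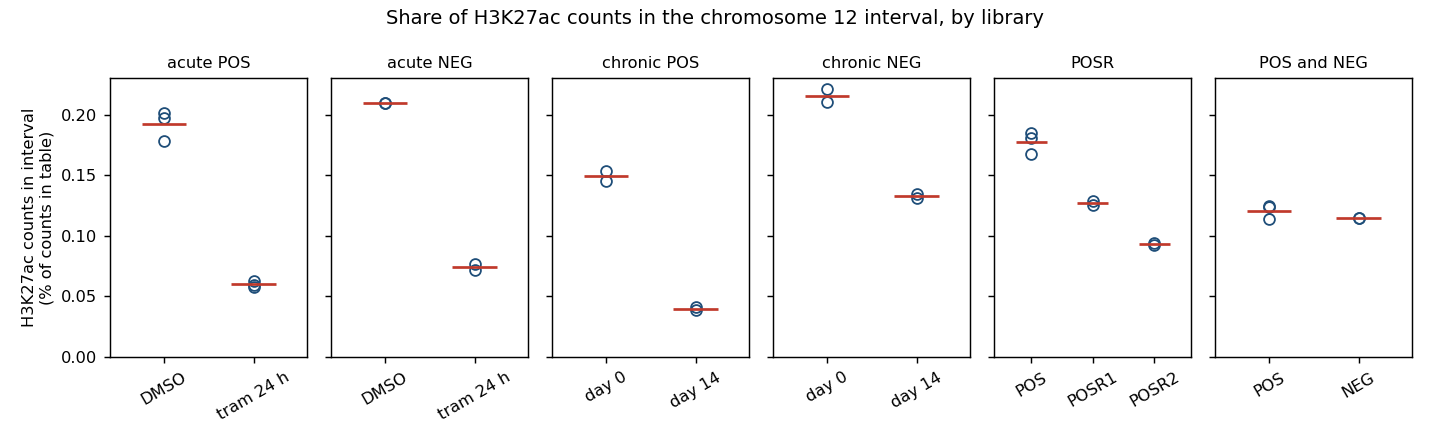
Share of H3K27ac counts that fall in the interval (y axis, percent of all counts in the table) for each library (open circles) by group (x axis), with the group mean as a red line; each panel is a separate table. The trametinib and day 14 libraries lie below their controls in all 4 treatment panels. Each table has its own regions and members, so heights are not compared between panels.

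Trametinib for 24 hours was followed by lower H3K27ac across most of the interval in POS cells. The 5 largest falls were at regions that start between 65.996 and 66.089 Mb. Of 41 members 30 fell and 3 rose, where 26.0% and 26.7% of all regions tested did (52.7% in either direction). The median log2 fold change was -1.14 over the members and 0.02 over all regions.

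The largest fall was at chr12:66050838-66051839 (66.051 Mb), from 195, 138 and 175 CPM in the DMSO libraries to 11.7, 11.7 and 11.2 CPM with trametinib. All 3 treated libraries were at about the same low level, 14.7-fold below the DMSO mean, and the log2 fold change was -3.87 ± 0.20. At chr12:66089305-66090306 (66.089 Mb) the level went from 121, 83.2 and 115 to 8.71, 7.18 and 7.19 CPM, a log2 fold change of -3.78 ± 0.19. The chr12:66063962-66064963 region (66.064 Mb) went from 169, 120.3 and 161 to 14.6, 15.2 and 13.4 CPM (-3.38 ± 0.19 in log2). In these 3 regions the groups did not come near each other. The region with the highest level in the table, chr12:66042191-66043192 (66.042 Mb), fell from 229, 181 and 199.6 to 30.5, 31.7 and 30.1 CPM, -2.71 ± 0.19 in log2, and so kept more H3K27ac than its neighbour at 66.051 Mb. Region chr12:65996216-65997217 (65.996 Mb) fell from 151, 99.9 and 129.7 to 14.2, 15.5 and 15.6 CPM (-3.06 ± 0.19). The last of the 5 regions with the highest mean level, chr12:66025456-66026457 (66.025 Mb), fell least of them, from 171, 125 and 151 to 47, 36.7 and 40.4 CPM (-1.84 ± 0.18 in log2).

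The 3 members with the largest positive fold changes were weak regions toward the end of the interval. At chr12:66239406-66240407 H3K27ac rose from 8.89, 8.01 and 11.5 to 14.6, 12.7 and 16.9 CPM (0.65 ± 0.16 in log2). The regions chr12:66311385-66312386 and chr12:66250666-66251667 rose by 0.60 ± 0.18 and 0.49 ± 0.17 in log2, with 7.43, 6.32 and 11 CPM in DMSO and 13.1, 10.7 and 11 CPM with trametinib at the second. The groups did not overlap at the first 2 of these regions and overlapped at the last. Leaving out 1 library at a time left 1 to 3 rises. Split at 66.20 Mb, a position chosen after the values were seen, 29 of 30 members to the left fell and none rose (median -1.54), while 1 of 11 to the right fell and 3 rose (median -0.16).

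In NEG cells the largest falls were at loci that were also among the largest in POS (66.051, 66.089 and 66.042 Mb). Of 45 members 29 fell and 1 rose, with 19.3% and 17.2% of all regions tested (36.5% in either direction), and the median was -0.97 against 0.04 over all regions. At chr12:66050745-66051746 (66.051 Mb) the level went from 209.8 and 221 CPM with DMSO to 39.2 and 34.2 CPM with trametinib, -2.55 ± 0.11 in log2, the largest fall among the members. Regions chr12:66089329-66090330 and chr12:66042235-66043236 followed with -2.52 ± 0.13 and -2.49 ± 0.11 in log2. The other strong NEG members also fell without overlap: chr12:66025456-66026457 from 178 and 191 to 40.6 and 36.2 CPM and chr12:65996245-65997246 from 197 and 182 to 41 and 39.3 CPM. Another, chr12:65959350-65960351, which is listed in this table only, went from 178 and 183 to 71.1 and 64.9 CPM (-1.41 ± 0.10 in log2). The single rise was at chr12:65720856-65721857, from 6.36 and 5.78 to 9.7 and 10.1 CPM (0.70 ± 0.25 in log2). It did not pass by DESeq2 (0 higher, 21 lower) or with any 1 library left out. The 5 members to the right of 66.20 Mb did not pass in either direction.

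**Figure D2:**
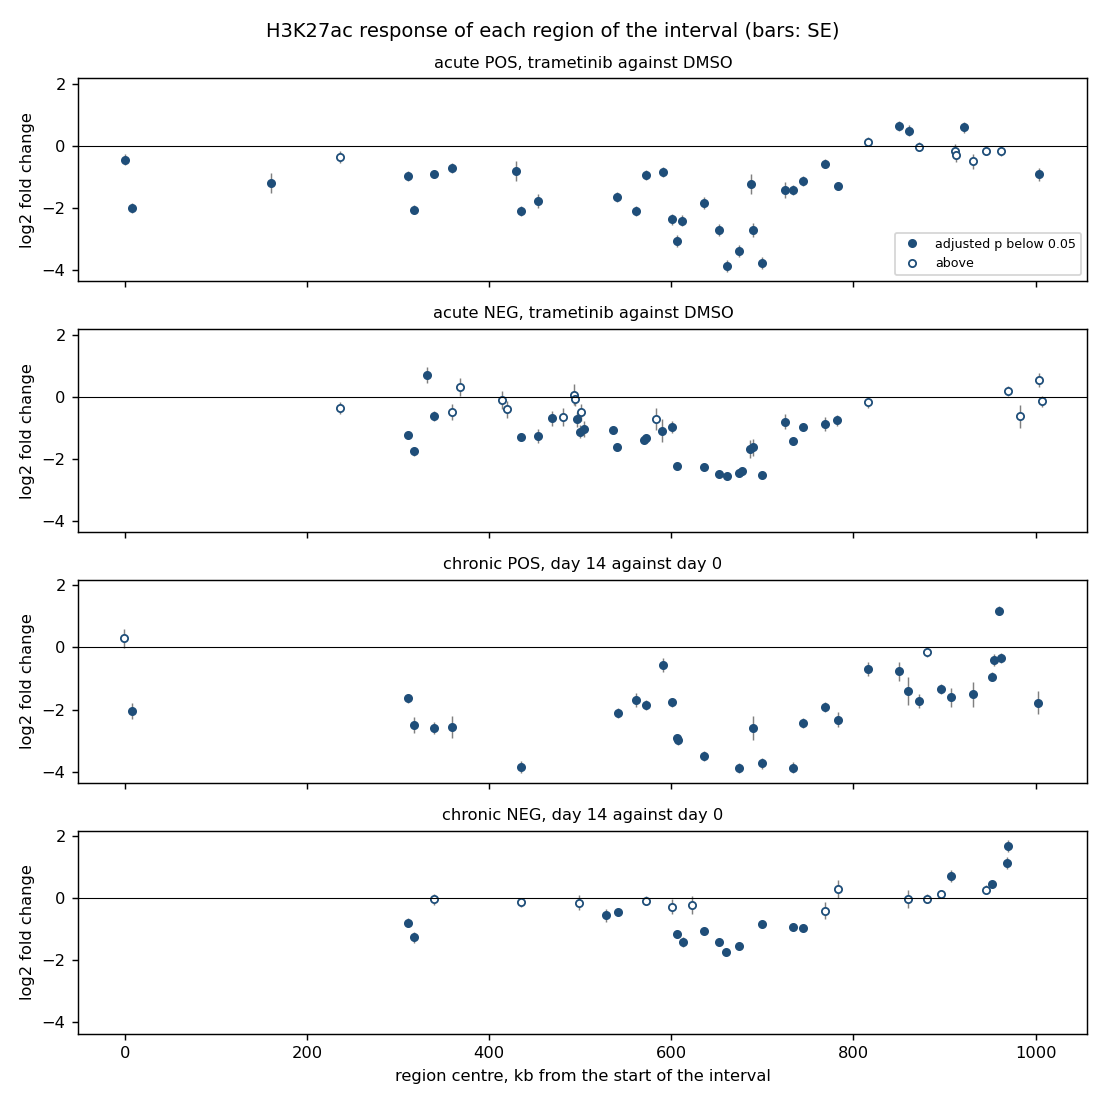
Log2 fold change of H3K27ac (y axis, SE bars) for each member by its distance in kb from the start of the interval (x axis), in the 4 treatment comparisons; filled points passed an adjusted p of 0.05 over the whole table. The deepest falls of each panel reach -3.87 for POS and -2.55 for NEG in the acute arm and -3.88 for POS and -1.75 for NEG in the chronic arm, and the rises lie to the right of 66.20 Mb except for 1 in acute NEG.

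Of 21 members matched 1 to 1 between the acute tables by 50% reciprocal overlap, 18 fell in both subpopulations, where 19.0% of all matched regions did. Over 26 loci with 1 region in each table the POS and NEG fold changes had a Pearson's r of 0.82 and a Spearman's rho of 0.83; these loci are neighbours in the same libraries and not independent. The difference between the responses was tested over the matched regions, with both tables scaled together. The response was less negative in NEG at 6 of the 21 and more negative at 0 (6 and 1 with libraries scaled by total counts), beside 14.1% and 11.5% of all matched regions (25.6% in either direction). The largest difference, 1.33 ± 0.25 in log2 (NEG minus POS), was at chr12:65990081-65991082, where the level in POS went from 101, 77.8 and 95.5 to 18.5, 17.4 and 17.2 CPM and in NEG was already low, from 15.9 and 16.5 to 8.08 and 8.44 CPM. At 66.051 Mb the NEG fall was smaller by 1.25 ± 0.21, and at 66.089 Mb by 1.21 ± 0.23. At 66.042 Mb the difference was 0.16 ± 0.20 and did not pass.

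At day 14 of the chronic arm POS cells had lost H3K27ac at nearly every member. Of 35 members 32 fell and 1 rose, where 38.2% and 39.5% of all regions did (77.8% in either direction), with a median of -1.78 against 0.02. The largest fall was at chr12:66063934-66064935 (66.064 Mb), from 140.1 and 126 CPM at day 0 to 8.68 and 9.41 CPM at day 14, -3.88 ± 0.17 in log2. At chr12:66122663-66123664 (66.123 Mb) the level went from 85.1 and 81.9 to 5.35 and 6.08 CPM (-3.87 ± 0.18), and at chr12:65824634-65825635 (65.824 Mb) from 56.2 and 53.8 to 3.51 and 4.12 CPM (-3.85 ± 0.20). The day 14 means were 14.7-fold, 14.6-fold and 14.4-fold below the day 0 means at these 3 loci, where the log2 fold changes after 24 hours in the acute arm were -3.38, -1.43 and -2.10. The strongest day 0 region among the members listed in chronic POS was chr12:66025458-66026459 (66.025 Mb). It fell from 164 and 129.8 to 12.6 and 13.9 CPM, -3.48 ± 0.16 in log2. The adjoining regions chr12:65996159-65997160 and chr12:65997210-65998211 fell with log2 fold changes of -2.93 ± 0.15 and -2.98 ± 0.16.

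A single member rose in chronic POS. At chr12:66349142-66350143, listed in this table only, H3K27ac went from 41 and 30.5 to 82 and 84.5 CPM (1.19 ± 0.14 in log2). This made it the strongest at day 14 among the members listed in chronic POS. The loci at 66.042 and 66.051 Mb were not analysed here in chronic POS. The next values in that direction were 0.29 ± 0.31 at chr12:65389040-65390041 and -0.16 ± 0.15 at chr12:66270639-66271640, and neither passed. To the right of 66.20 Mb 11 of 13 members fell at day 14, with a median of -0.94, where the acute arm had 1 of 11. The arms differ in dose as well as time and were not tested against each other. Of 23 members matched between the POS tables, which share no library, 18 fell in both, where 23.3% of all matched regions did. The value was more negative at day 14 for 16 of them, beside 57.2% of all matched regions. Over 26 loci with 1 region in both tables Pearson's r was 0.70 and Spearman's rho 0.68.

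NEG cells had lost H3K27ac at part of the members by day 14, and 4 members were higher than at day 0. Of 29 members 13 fell and 4 rose, beside 23.8% and 24.8% of all regions (48.6% in either direction), with a median of -0.28 against -0.001. The strongest region of any table, chr12:66049528-66050529 (66.050 Mb), went from 372 and 361 CPM at day 0 to 111 and 107 CPM at day 14, -1.75 ± 0.09 in log2 and the largest fall. Regions chr12:66063934-66064935 and chr12:66042207-66043208 fell with log2 fold changes of -1.54 ± 0.14 and -1.42 ± 0.10. The libraries did not overlap at any of the 3. Regions chr12:66025474-66026475 and chr12:65996242-65997243 fell with -1.05 ± 0.10 and -1.17 ± 0.10, and chr12:66134531-66135532 with -0.96 ± 0.11. Rises were at the right end: chr12:66359533-66360534 went from 12.2 and 12.7 to 43.5 and 35.9 CPM (1.67 ± 0.20). The adjacent chr12:66358329-66359330 rose by 1.13 ± 0.20, and chr12:66296137-66297138 by 0.72 ± 0.18. All 13 falls were to the left of 66.20 Mb and all 4 rises to the right of it. Of 14 members matched between the NEG arms, 9 fell in both (16.4% of all matched regions), and the value was more negative at day 14 at 0 (42.0% of all matched regions). Over 17 loci with 1 region in both, Pearson's r was 0.78 and Spearman's rho 0.75.

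Tested directly over matched regions, the day 14 response was less negative in NEG than in POS at 16 of 20 matched members and more negative at 0, beside 31.9% and 30.7% of all matched regions (62.6% in either direction). The median difference was 1.20 in log2 over the members and 0.02 over all matched regions. The largest was 3.20 ± 0.26 at chr12:65824634-65825635: in POS the level fell as given above, and in NEG it was 51.3 and 46 CPM at day 0 and 43.5 and 45 CPM at day 14. Day 0 and day 14 lay close together in NEG there (-0.13 ± 0.14 in log2). At chr12:66122663-66123664 the difference was 2.42 ± 0.24 and at chr12:66089298-66090299 it was 2.37 ± 0.23. In this joint scaling the responses at 66.123 Mb were -3.36 ± 0.17 in POS and -0.94 ± 0.14 in NEG, so the POS fall is smaller than in its own table. With libraries scaled by total counts the median difference over all matched regions moved to 0.34, the split of all calls from 50.9% to 65.6% higher, and 19 members differed in place of 16.

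**Figure D3:**
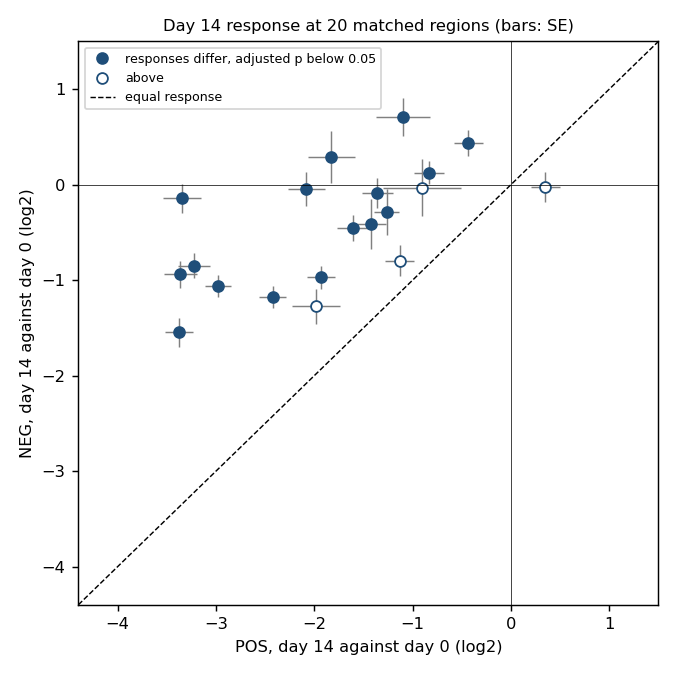
Day 14 against day 0 log2 fold change of H3K27ac in POS (x axis) and NEG (y axis) at the 20 matched members, with SE bars; filled points are the 16 where the responses differed by the interaction test, and the dashed line marks equal responses. The filled points lie above the line, from 0.87 to 3.20 log2 units.

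Levels were also summed over clusters of neighbouring loci. Joined where less than 10000 bases apart, the loci formed 25 clusters. Of 12 members matched over the 4 treatment comparisons, 8 fell in all 4, where 12.0% of all regions matched over them did. The cluster with the highest summed level among those with regions in all of the trametinib tables and in POS against NEG, chr12:65950289-66013529 (10 loci), went in acute POS from 406 ± 55.7 CPM (SD, n = 3) to 95.6 ± 4.56 CPM (SD, n = 3). In chronic POS it went from 394 ± 45.6 CPM to 81.1 ± 3.44 CPM (SD, n = 2 each). NEG values were 458 ± 0.659 CPM and 146 ± 8.44 CPM in the acute arm and 365 ± 37.6 CPM and 189.8 ± 17 CPM in the chronic arm (SD, n = 2 each). The log2 ratios were -2.09, -2.28, -1.65 and -0.94 in that order, over 6, 6, 6 and 5 regions that were called separately in each table, so their order is not read. Without drug, 3 regions of this cluster were listed in POS against NEG, and their sums gave a log2 ratio of 2.29. The sums were 118 ± 14.8 CPM in POS (SD, n = 3) and 24.2 ± 0.297 CPM in NEG (SD, n = 2). Most of the POS sum was the region at 65.990 Mb (109.8, 78.7 and 102 CPM). The loci at 65.962 and 65.996 Mb were not analysed here in that comparison, so the ratio covers only part of the cluster. The cluster chr12:66063931-66090330 was 10.4-fold lower in acute POS (4 regions), 13.3-fold in chronic POS (3), 5.18-fold in acute NEG (5) and 2.22-fold in chronic NEG (2). Its neighbour chr12:66042161-66051884 holds the loci at 66.042 and 66.051 Mb. That cluster was 8.8-fold lower in acute POS, 5.74-fold in acute NEG and 3.06-fold in chronic NEG (2 regions each). It was not analysed here in chronic POS. These regions too were called separately for each comparison, so the order of the folds is not read.

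Groups were ordered by level at 4 loci listed in all 6 tables, and the order was not the same at each. At 66.064 Mb the 3 POS DMSO libraries and the 2 POS day 0 libraries were highest and overlapped, and POSR1 (101 and 123 CPM) reached the lowest of them. NEG DMSO (80.1 and 91 CPM), NEG day 0 (90.3 and 95 CPM) and POSR2 (79.8 and 74.6 CPM) came next and were close to each other, POSR2 lowest. NEG day 14 (30.4 and 32.6 CPM) lay above acute trametinib in NEG (16 and 15 CPM) and POS (14.6, 15.2 and 13.4 CPM), which overlapped, and POS day 14 (8.68 and 9.41 CPM) was lowest. At 66.123 Mb POSR2 (6.7 and 8.28 CPM) was instead below acute trametinib in POS (28.1, 25.4 and 26.7 CPM) and NEG (31.1 and 25.5 CPM). At 65.824 Mb NEG day 14 was close to NEG day 0, with the values given above. These values cross separately scaled tables, so the order is a description.

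**Figure D4:**
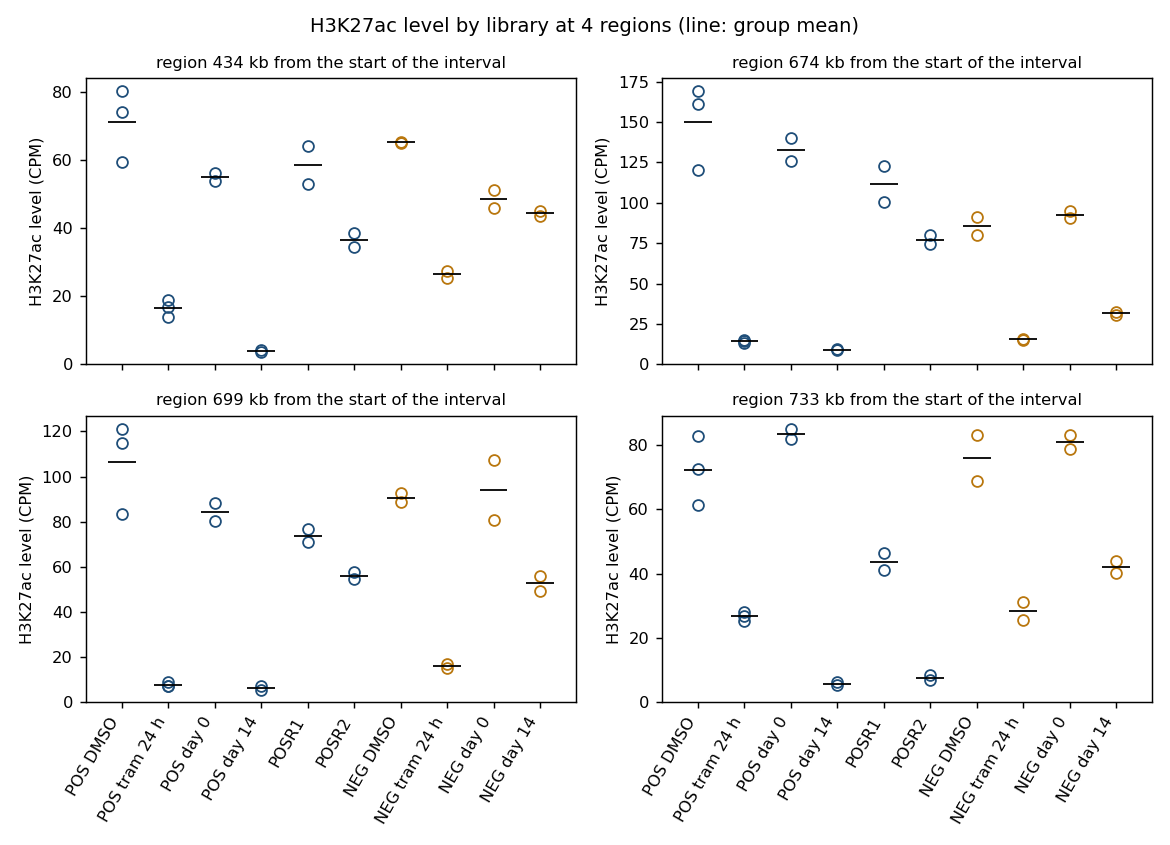
H3K27ac level in CPM (y axis, from 0) of each library (circles) by group (x axis; POS and POSR in blue, NEG in orange), with the group mean as a line, at the 4 loci with the largest chronic POS falls among those in all 6 tables (65.824, 66.064, 66.089 and 66.123 Mb), titled by their distance from the start of the interval. Trametinib groups lie below their controls at all 4 loci, by little at the first in NEG at day 14, and POSR2 lies near POS day 14 at the last of them.

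POSR libraries held less H3K27ac than POS at many members, and POSR2 less than POSR1. With POSR1 and POSR2 as 1 group, 26 of 44 members were lower than in POS DMSO and 1 higher, where 18.5% and 17.5% of all regions were (36.1% in either direction). Set singly against POS, POSR1 was lower at 28 and higher at 1 (29.4% and 26.5% of all regions, 55.9% in either direction), and POSR2 lower at 33 and higher at 1 (29.2% and 28.2%, 57.4% in either direction). The largest fall with POSR as 1 group was at chr12:66261484-66262485, from 32.8, 21.4 and 25.7 CPM in POS to 6.6 and 8.0 CPM in POSR1 and 2.27 and 1.58 CPM in POSR2 (-2.53 ± 0.45 in log2). The weak regions chr12:66302321-66303322 and chr12:66114055-66115056 followed with -2.17 ± 0.31 and -2.06 ± 0.26. At the loci with the highest levels the differences were smaller. At 66.025 Mb POS had 169, 116 and 145 CPM, POSR1 152 and 154 CPM and POSR2 114 and 105 CPM, and the groups overlapped (-0.13 ± 0.19 in log2, not past the threshold). POSR was lower at 66.042 Mb (-0.53 ± 0.16), 66.051 Mb (-0.74 ± 0.21), 66.064 Mb (-0.62 ± 0.21) and 66.089 Mb (-0.66 ± 0.19). The single rise was chr12:66393340-66394341, at 10.4, 8.83 and 8.62 CPM in POS, 11.5 and 12.2 CPM in POSR1 and 17.9 and 16.8 CPM in POSR2 (0.65 ± 0.21), and it did not pass with libraries scaled by total counts. Without POS DMSO replicate 2, 23 members were lower and 0 higher, and without replicate 1 or replicate 3 in its place 19 or 18 were lower and 0 higher.

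POSR2 differed from POSR1 at 23 of 44 members, 20 lower and 3 higher, beside 19.3% and 21.2% of all regions (40.5% in either direction). The difference was largest at chr12:66122662-66123663 (66.123 Mb): POS had 82.1, 57.3 and 69.9 CPM, POSR1 41.1 and 46.3 CPM and POSR2 6.7 and 8.28 CPM. POSR2 was 5.84-fold below POSR1 there, -2.55 ± 0.21 in log2. At chr12:66261484-66262485 the difference was -1.91 ± 0.28 and at chr12:65707521-65708522 it was -1.59 ± 0.22. The 3 members that were higher in POSR2 sit at the ends of the interval, led by chr12:65389504-65390505, with 2.39 and 2.27 CPM in POSR1 and 8.14 and 8.67 CPM in POSR2 (1.85 ± 0.28). Regions chr12:65397566-65398567 and chr12:66393340-66394341 were higher by 1.03 ± 0.19 and 0.55 ± 0.16.

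Without drug, members differed between POS and NEG in both directions. Of 41 members 12 were higher and 15 lower in POS, where 38.6% and 38.0% of all regions were (76.5% in either direction), with a median of -0.16 against -0.04. The count of 27 fell to 17 (8 higher, 9 lower) without NEG DMSO replicate 1 and rose to 31 without POS DMSO replicate 2. With libraries scaled by total counts the median of all regions moved to -0.19, and 9 members were higher and 17 lower. The regions higher in POS included strong ones: chr12:65990123-65991124 (65.990 Mb) had 109.8, 78.7 and 102 CPM in POS and 14.2 and 14.7 CPM in NEG, 2.74 ± 0.23 in log2. The 2 largest ratios were at the start of the interval. At chr12:65397566-65398567 POS had 23.9, 19.6 and 27.2 CPM and NEG 2.13 and 1.42 CPM (3.73 ± 0.26). For chr12:65389504-65390505 the values were 8.48, 11.7 and 10.0 and 0.711 and 0.887 CPM (3.61 ± 0.42). The NEG libraries are close to the count floor at this last region, so the size of its ratio is uncertain. The regions lowest in POS were weak in both: chr12:65886567-65887568 had 1.27, 4.8 and 1.75 CPM in POS and 10.1 and 8.87 CPM in NEG (-1.97 ± 0.39). The neighbour chr12:65888874-65889875 stood at -1.93 ± 0.28 and chr12:65808913-65809914 at -1.77 ± 0.43. The strongest regions differed less. The region chr12:66025456-66026457 had 178, 124 and 153 CPM in POS and 159 and 170.4 CPM in NEG, which overlap (-0.12 ± 0.23). At chr12:66063962-66064963 POS was higher by 0.99 ± 0.23, while chr12:66089305-66090306, at 0.41 ± 0.22, and chr12:65929977-65930978, at 0.00 ± 0.21, did not pass. Region chr12:66134527-66135528 was lower in POS (-0.62 ± 0.20). In this comparison the loci at 65.996, 66.042 and 66.051 Mb were not analysed here.

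JUNB sites were spread along the same stretch, and the strongest 3 lay in the strong H3K27ac loci at 66.051, 66.025 and 66.042 Mb. Of 92 tested sites 20 were higher and 31 lower in POS than in NEG, beside 28.5% and 29.4% of all sites (57.9% in either direction), with a median of -0.19 against -0.02. The strongest site, chr12:66050748-66050949, had 101 and 68.4 CPM in POS and 159.7 and 163 CPM in NEG (-0.93 ± 0.23 in log2); it lies in the 66.051 Mb locus. Next came chr12:66025496-66025697 with 88.8 and 70.3 CPM in POS and 97.1 and 94.9 CPM in NEG (-0.27 ± 0.23, not past the threshold). The sites chr12:66042938-66043139 and chr12:65930749-65930950 were lower in POS (-0.58 ± 0.23 and -0.71 ± 0.23). So was chr12:66285974-66286175, with 36.5 and 30.5 CPM in POS and 61.1 and 72.7 CPM in NEG (-0.99 ± 0.23). The sites highest in POS relative to NEG were chr12:65398160-65398361, with 19.4 and 19 CPM in POS and 0.705 and 0 CPM in NEG, chr12:66001358-66001559 (3.24 ± 0.36) and chr12:65990348-65990549 (3.03 ± 0.30). The first of these is close to the count floor in NEG, so its fitted value is not printed as a fold. The sites lowest in POS were chr12:65891504-65891705 (-3.51 ± 0.42), chr12:65918449-65918650 (-3.46 ± 0.34) and chr12:66346522-66346723 (-3.37 ± 0.30).

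JUNB and H3K27ac differences between POS and NEG shared their direction at the members where both passed, as at nearly all regions of the table. Of the 41 H3K27ac members, 25 (61%) held a JUNB site by at least 50% of the site, against 77.7% of all regions of that table. The count takes in 1 site that starts just outside the interval, chr12:65389681-65389882. Over these 25 members the log2 fold changes of the strongest site and of H3K27ac had a Pearson's r of 0.94 and a Spearman's rho of 0.89; the libraries are different, but both readouts share the cells and the neighbourhood. Both passed at 14 of these 25 members, beside 59.4% of all regions with a tested site. The direction was shared at all 14, as it was at 96.5% of all regions where both passed. The example at 65.990 Mb has 23 and 21.7 CPM of JUNB in POS and 3.17 and 2.09 CPM in NEG. At 66.159 Mb JUNB site chr12:66158895-66159096 had 32.7 and 20.5 CPM in POS and 9.86 and 6.98 CPM in NEG (1.65 ± 0.25), beside H3K27ac of 63.2, 48.4 and 59.8 CPM in POS and 12.1 and 12.4 CPM in NEG (2.23 ± 0.21). At both loci the site and the region were higher in POS in every library.

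**Figure D5:**
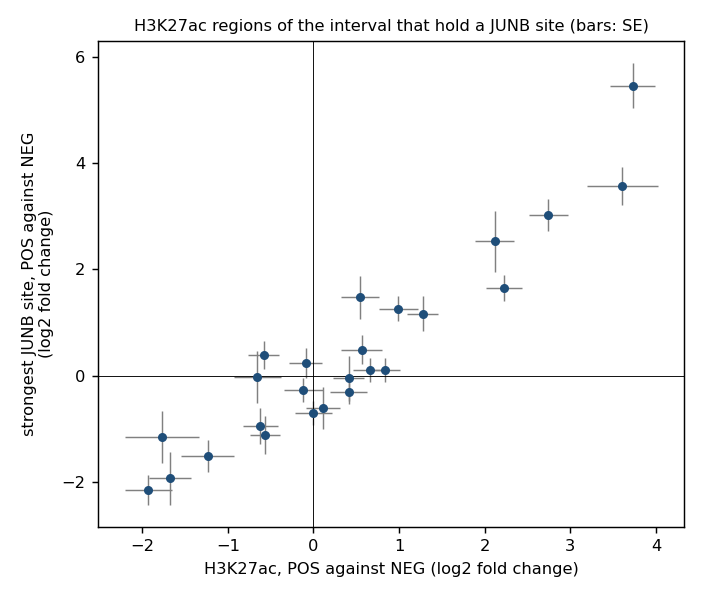
POS against NEG log2 fold change of H3K27ac (x axis) and of the strongest JUNB site inside the same region (y axis) for the 25 members that hold a site, with SE bars. Points run from low in both to high in both, and the 14 members that passed in both readouts share their direction.

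JUNB was not profiled with trametinib, so only the drug-free sites can be set beside the H3K27ac response. In acute POS 29 of 41 members held a site (70.7%, with 77.7% of all regions). Their median log2 fold change was -1.65, against -0.43 for the 12 members without one, and over all regions the medians were -0.04 and 0.19. In acute NEG the medians with and without a site were -1.13 and -0.57 over the members (33 and 12) and -0.07 and 0.15 over all regions. In chronic POS they were -1.98 and -1.41 over the members (30 and 5) and -0.22 and 1.29 over all regions. Regions with a site had the lower median in each of these, over the members and over all regions alike. For chronic NEG the members' medians were -0.41 with a site and -0.12 without (all regions -0.02 and 0.12). In POSR against POS the members went the other way, with -0.66 for the 29 with a site and -1.50 for the 15 without. All regions of that comparison kept the order of the others (-0.02 and 0.17). Among the 29 acute POS members with a site, the log2 fold change had a Spearman's rho of -0.64 with the H3K27ac level in DMSO and of -0.35 with the JUNB level. Among the 33 acute NEG members with a site the values were -0.74 and -0.56. The H3K27ac level in DMSO is also the reference of the fold change, so a negative rho with it is partly built in. The rhos for H3K27ac and JUNB are therefore not ranked. The part of the H3K27ac level in the difference between members with and without a site was not tested.

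The interval was also set beside its flanks, as a description. In windows of the same length on either side, the acute POS medians were -0.27 (31 regions) and -0.46 (11 regions) where the interval had -1.14. In chronic POS they were -0.21 and 0.57, against -1.78. At the bounds of the rule the acute POS values were chr12:65204047-65205048 at 0.17 ± 0.15 just outside and chr12:65389504-65390505 at -0.44 ± 0.19 just inside on the left, and chr12:66393340-66394341 at -0.92 ± 0.20 just inside and chr12:66429438-66430439 at -0.51 ± 0.14 just outside on the right. In POS against NEG the nearest region outside on the left was chr12:65203946-65204947 at 2.18 ± 0.30. The first inside was chr12:65389504-65390505 at 3.61 ± 0.42, where NEG is close to the count floor.

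Among 10 members matched in all 6 tables, the one with the highest mean level was chr12:66025456-66026457. Of 9724 regions matched in all 6 tables outside the interval, the 3 with the smallest Euclidean distance over its 6 log2 fold changes were chr20:36845533-36846534 (distance 0.821), chr6:10632917-10633918 (distance 0.992) and chr2:110907353-110908354 (distance 1.03). The nearest of them had -1.62, -1.81, -2.91 and -0.74 for POS and NEG of the acute arm and POS and NEG of the chronic arm, where the member had -1.84, -2.26, -3.48 and -1.05.

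The authors' deposited tables called fewer members at an adjusted p below 0.05 than the fits here in all comparisons except POSR against POS, where both called 27. In the authors' deposited table for acute POS, 28 of 41 members were lower and 1 higher, with 39.5% of all its regions called in either direction. For chronic POS the authors' deposited table had 25 of 35 lower and 1 higher (54.0% of all regions). For acute NEG the authors' deposited table had 18 of 45 lower and 0 higher, and 8 of the 45 had no adjusted p. Of all its regions with an adjusted p, 15.6% were called. For chronic NEG the authors' deposited table had 10 of 29 lower and 2 higher (16.3% of all regions with an adjusted p). POS against NEG had 8 higher and 7 lower in the authors' deposited table (56.9% of all regions) and 12 and 15 here. For JUNB the authors' deposited table had 15 sites higher and 20 lower (35.3% of all sites), against 20 and 31 here. For POSR against POS the authors' deposited table had 1 higher and 26 lower (35.8%). When an absolute log2 fold change of at least 1 was also required of the fits here, 14 of 41 members passed in POS against NEG, below the 59.5% of all regions. The other counts were 21 of 41 in acute POS (19.6% of all regions), 21 of 45 in acute NEG (11.2%), 27 of 35 in chronic POS (52.9%), 9 of 29 in chronic NEG (16.6%), 16 of 44 in POSR against POS (19.5%), 10 of 44 in POSR2 against POSR1 (17.7%) and 40 of 92 for JUNB (50.6%).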

How the data were processed

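H3K27ac and JUNB ChIP-seq of sorted SUM-229PE cells was analysed from the authors' tables, which are on hg19. Per the submitters' processing notes, cutadapt 1.12, STAR 2.5.2b, featureCounts, MACS2 and DESeq2 were used; the sources used here do not give their settings. The authors deposited raw counts per region of 1001 bases (H3K27ac) or 201 bases (JUNB), 1 table per comparison over a union of peaks called separately for it. The authors' deposited DESeq2 tables were made from those counts and hold mean normalised signal, log2 fold changes, a test score and p-values, per the file headers; they are used only where named. Columns of the 24 hour trametinib libraries are named GSK and were matched to samples by subpopulation, antibody and replicate number. The 10 input libraries have no count column.

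Counts were fitted with edgeR 4.0.16 (quasi-likelihood, TMM factors, filterByExpr with a minimum count of 10) in R 4.3.3 over each whole table, with Benjamini-Hochberg adjustment at 0.05; DESeq2 1.42.0 was an alternative. Responses of POS and NEG were compared by an interaction term over regions matched by 50% reciprocal overlap. The main fit of each table was also run on simulated data, but not the interaction or POSR2 against POSR1. The simulation gave all regions the same spread, so it checked the code and not the spread of these libraries. The text names, per comparison, up to 3 of the largest changes in each direction among the members tested, whether or not they passed. It also names the 5 members with the highest mean level, except for POSR2 against POSR1, where only the changes are named. The interval, the members and these rules were chosen with earlier results of these data known. Replicate libraries correlated at 0.933 to 0.982 and differed by more than sampling noise, so none was merged. Correlations of same-numbered deviations ran from -0.198 to 0.376, so replicate numbers were not taken to pair libraries.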

Additional observations from a re-analysis of the deposited data

Results flagged for a closer look

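The responses of POS and NEG differed by the interaction test at 6 matched members in the acute arm. The differences, NEG minus POS in log2, were at chr12:65824646-65825647 (0.74), chr12:65990081-65991082 (1.33), chr12:65996216-65997217 (0.76), chr12:66050838-66051839 (1.25), chr12:66063962-66064963 (0.86) and chr12:66089305-66090306 (1.21). All are positive: the fall after 24 hours of trametinib was smaller in NEG at these regions.

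At day 14 the responses differed at 16 matched members, again with positive differences. The largest were at chr12:65824634-65825635 (3.20), chr12:66122663-66123664 (2.42), chr12:66089298-66090299 (2.37), chr12:66172278-66173279 (2.11) and chr12:65729098-65730099 (2.04). Next came chr12:66025458-66026459 (1.92), chr12:66063934-66064935 (1.83) and chr12:66296387-66297388 (1.81). Regions chr12:65961658-65962659 (1.27), chr12:65996159-65997160 (1.25), chr12:65930666-65931667 (1.15) and chr12:66158682-66159683 (1.00) followed. The smallest were at chr12:65990071-65991072 (0.98), chr12:66134531-66135532 (0.96), chr12:66285122-66286123 (0.96) and chr12:66341893-66342894 (0.87). The loci at 65.824, 65.990, 65.996, 66.064 and 66.089 Mb differed in both arms, while 66.051 Mb differed in the acute arm and was not analysed here in chronic POS. At chr12:66341893-66342894 the NEG level rose from 54.1 and 55.2 CPM at day 0 to 76.6 and 70.9 CPM at day 14 (0.44 ± 0.13 in log2), while POS went from 38 and 33.2 to 17 and 20.6 CPM (-0.94 ± 0.15), so the directions were opposite there. These are values of the separate tables; in the joint scaling that gave the difference of 0.87 the responses were -0.43 ± 0.15 in POS and 0.43 ± 0.13 in NEG.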

How the results depend on the processing

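Over 26 results, 122 of 135 alternative values stayed within the limits set for them, and no direction was reversed. Requiring an absolute log2 fold change of at least 1 left 14 of 41 members in POS against NEG (59.5% of all regions), 21 of 41 in acute POS (19.6%), 9 of 29 in chronic NEG (16.6%), 16 of 44 in POSR against POS (19.5%) and 10 of 44 in POSR2 against POSR1 (17.7%). With the replicate number as a block, 17 members passed in POS against NEG (7 higher, 10 lower) and 13 in POSR against POS (0 higher, 13 lower); the block moved no other count by over 1.5 times. Of the 6 acute POS libraries 3 correlated best with a library of their own number. Regions under 5000 bases apart were also joined, and the leading cluster's strongest piece was taken among those listed in POS against NEG and in every treatment comparison. This was the locus chr12:65990071-65991148, which is weak in NEG. Its log2 ratios were 2.74 in POS against NEG, -2.37 for POS and -0.97 for NEG in the acute arm, and -1.76 for POS and -0.30 for NEG in the chronic arm. A stronger piece, chr12:65996159-66003907, was not analysed here in POS against NEG. Its log2 ratios were -2.77 for POS and -2.24 for NEG in the acute arm, and -2.94 for POS and -1.23 for NEG in the chronic arm. Leaving out 1 library at a time, the members that passed numbered 17 to 31 in POS against NEG, 29 to 35 in acute POS, 26 to 28 in acute NEG, 28 to 33 in chronic POS, 15 to 17 in chronic NEG, 18 to 32 in POSR against POS, 16 to 26 in POSR2 against POSR1, 39 to 49 for JUNB, 6 to 8 for the acute difference and 15 to 17 for the chronic one. The low end of POS against NEG was without NEG DMSO replicate 1. Depth limits the precision of the JUNB values, at a median of 17 to 27 counts per site.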
